A study of Homo sapiens with 41 samples.

Results

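The promoters described here belong to 10 of the 11 protein-coding genes whose start carried the highest-ranking HDAC6 peaks in untreated MDA-MB-231 cells. These came out of 1580 genes with an HDAC6 peak at the start in all 4 control lists and 19974 genes in all. The 10 are CAMTA1, ZNRF2, OSBP, PHTF2, TMEM60, ZC3H6, COQ6, FBXO33, TANC2 and RFX1. They were chosen by the mean rank of the strongest HDAC6 peak within 1 kb of the gene start over 2 ChIP and 2 CUT&Tag control lists, so the HDAC6 values below describe the choice and were not tested. PHTF2 and TMEM60 are transcribed away from each other from starts 339 bp apart and share every start peak, so the 10 genes make 9 distinct regions. On GRCh38 the genes span chr1:6785454-7769706 (CAMTA1), chr7:30284597-30367689 (ZNRF2), chr11:59574398-59615774 (OSBP), chr7:77798773-77957504 (PHTF2), chr7:77793728-77798434 (TMEM60), chr2:112275597-112340059 (ZC3H6), chr14:73949918-73963670 (COQ6), chr14:39397684-39432433 (FBXO33), chr17:62966235-63427703 (TANC2) and chr19:13961530-14006816 (RFX1).

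MDA-MB-231 is an epithelial line from a human breast cancer that lacks hormone receptors and HER2 (triple-negative). Peak lists of 32 samples were used, of 41 samples in the series. Cells were untreated (Ctrl), exposed to the HDAC6 inhibitor Nexturastat A at 5 µM for 2 days (NextA), or carried a control hairpin (shCtrl) or a hairpin against HDAC6 (shHDAC6), and each library was prepared from 100000 cells. HDAC6 ChIP was done in Ctrl, NextA and shHDAC6 cells (2 lists each), with the CST antibody in replicate 1 of Ctrl and NextA and the Novus antibody in replicate 2 and in both shHDAC6 lists. HDAC6 CUT&Tag, in which an antibody tethers the transposase that cuts out the bound DNA, was done with the Novus antibody in 2 Ctrl samples. The antibody called pan-acetyl recognises acetylated lysines of histone H3, and its lists came from Ctrl and NextA cells (2 each). RNA polymerase II (PolII) was mapped with the 4H8 antibody to the tail of its largest subunit in Ctrl, NextA, shCtrl and shHDAC6 cells (2 lists each), and accessible chromatin by ATAC-seq in the same 4 groups (3 lists each). The labels do not say that replicates were separate cultures, so a p-value here sets differences against a spread that may be technical only. The labels give neither the hairpin sequences nor the number of hairpins or clones.

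HDAC6 is a deacetylase best known for removing acetyl groups from tubulin and other cytoplasmic proteins, and it also binds ubiquitin. At a typical active promoter the DNA just upstream of the start is free of nucleosomes, which ATAC-seq reads as an accessible peak. PolII loads there and often pauses a short way into the gene, and the nucleosomes on either side carry acetylated histone H3.

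Lists differed widely in length and in how they were made. HDAC6 ChIP lists held 28590 (CST) and 63833 (Novus) peaks in Ctrl, 3256 and 235 in NextA, and 16441 and 12152 in shHDAC6. In the Novus Ctrl list 26 peaks reached a −log10 q of 5, a measure of how unlikely the caller held the peak to be background. Pan-acetyl lists held 1418 and 41411 peaks in Ctrl and 28473 and 61186 in NextA, PolII lists 19519 to 31198 and ATAC lists 25878 to 79666. A peak's fold over background is the authors' own value, and a percentile here is the share of the peaks of the same list with a fold no higher. Of 6 genes active in this line, 6 had a PolII peak and 5 an ATAC peak in every Ctrl list, against 1 and 0 of 5 luminal and hormone receptor genes and 1 and 2 of 10 genes of other cell types.

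RefSeq promoter windows (GRCh38.p14, 250 bases before to 50 after the start) matched 9 of the 10 genes. FBXO33 had no entry. CCAAT, the box bound by the NF-Y factor, was found on either strand in 7 of these 9 windows, against 36.4% of all 15812 windows in the table. The 7 include PHTF2 and TMEM60, whose windows overlap. GGGCGG, the GC box bound by SP-family factors, was found in 8 of 9, against 58.3% of all windows. Among the other HDAC6-marked genes compared further on, 78.6% of windows held it, and 71.2% among accessible genes without that mark. The 250 bases upstream of the RefSeq start are printed for OSBP and RFX1, whose HDAC6 peaks stood out in the Novus ChIP Ctrl list. They are also printed for CAMTA1, the gene first in the HDAC6 ranking, and for PHTF2, whose window reaches toward TMEM60. The last is TANC2, which had no CCAAT and the weakest ATAC peaks. Capitals mark CCAAT boxes, GC boxes and, in CAMTA1, the ETS-type site CCGGAAG, also where the printed strand holds the reverse complement.
CAMTA1: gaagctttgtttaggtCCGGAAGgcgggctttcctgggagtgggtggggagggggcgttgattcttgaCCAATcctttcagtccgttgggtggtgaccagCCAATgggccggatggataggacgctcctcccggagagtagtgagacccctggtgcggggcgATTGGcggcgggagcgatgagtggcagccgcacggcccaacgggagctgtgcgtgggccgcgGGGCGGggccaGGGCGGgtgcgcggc
OSBP: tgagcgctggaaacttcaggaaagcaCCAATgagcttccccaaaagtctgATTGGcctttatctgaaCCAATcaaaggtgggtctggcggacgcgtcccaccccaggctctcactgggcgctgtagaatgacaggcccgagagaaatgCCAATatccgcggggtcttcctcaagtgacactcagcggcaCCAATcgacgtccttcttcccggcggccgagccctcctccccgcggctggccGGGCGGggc
RFX1: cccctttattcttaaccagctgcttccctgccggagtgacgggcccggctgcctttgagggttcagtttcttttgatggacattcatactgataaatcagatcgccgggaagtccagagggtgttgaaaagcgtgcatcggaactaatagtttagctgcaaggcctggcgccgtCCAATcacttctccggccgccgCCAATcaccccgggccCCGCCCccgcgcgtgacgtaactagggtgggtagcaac
PHTF2: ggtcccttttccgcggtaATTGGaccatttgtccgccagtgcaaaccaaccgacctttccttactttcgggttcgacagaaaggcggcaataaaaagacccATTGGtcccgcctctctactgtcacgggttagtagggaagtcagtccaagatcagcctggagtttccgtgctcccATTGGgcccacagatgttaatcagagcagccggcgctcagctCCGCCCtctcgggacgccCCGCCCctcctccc
TANC2: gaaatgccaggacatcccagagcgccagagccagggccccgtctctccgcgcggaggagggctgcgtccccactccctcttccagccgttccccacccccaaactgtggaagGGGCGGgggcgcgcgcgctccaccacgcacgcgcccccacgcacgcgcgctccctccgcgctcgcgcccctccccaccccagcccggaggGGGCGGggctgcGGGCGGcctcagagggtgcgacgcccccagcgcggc

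The CAMTA1 sequence is chr1:6785204-6785453 on the plus strand, with CCAAT 182, 150 and 88 bases before the start and GGGCGG 26 and 15 bases before it. The OSBP sequence is chr11:59615775-59616024 on the minus strand and held CCAAT 5 times, between 224 and 61 bases before the start. The PHTF2 sequence is chr7:77798523-77798772 on the plus strand, with 3 CCAAT boxes, each reading ATTGG on the printed strand. The TANC2 sequence is chr17:62965985-62966234 on the plus strand, with GGGCGG 3 times and no CCAAT, and its window had the highest GC content of the 9, 78.7%. The RFX1 sequence is chr19:14006321-14006570 on the minus strand, with CCAAT 76 and 54 bases before a RefSeq start that lies 496 bp inside the gene. All 250 bases of the OSBP and PHTF2 sequences lay inside the HDAC6 peak in each of the 4 Ctrl lists. The CAMTA1 sequence was covered by 233 to 250 bases, the TANC2 sequence by 170 to 250 and the RFX1 sequence by 130 to 250.

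At least 3 CCAAT boxes were present in 4 of the 9 windows (CAMTA1, OSBP, PHTF2 and TMEM60, of which the last pair overlap), against 3.98% of all other windows. Among the other genes with an HDAC6 start peak in all 4 Ctrl lists the share was 9.41% of 1318 windows, and among genes with an ATAC start peak in all 12 lists but without that HDAC6 mark it was 5.99% of 5743. Any CCAAT was found in 42.1% and 41.4% of those sets. The 313 other marked genes with the highest HDAC6 percentiles (71.6 to 94.2) had 266 windows. Of these, 46.6% held any CCAAT and 11.3% at least 3. COQ6 was the other member window without CCAAT, and the only one with TATAAA, which 9.75% of all windows held. CCGGAAG was found in CAMTA1 only (14.1% of all windows). No member window held the E-box CACGTG (8.82% of all windows), the CRE TGACGTCA (2.56%), the AP-1 site TGANTCA (5.70%), a palindromic NRF1 site (1.77%), an extended YY1 site (1.88%) or an X-box of RFX factors (0.0569%). Median GC content was 64.0% in the 9 windows and 62.7% in all windows. A match is a stretch of letters and not evidence of binding.

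HDAC6 ranks in the Ctrl lists were high in every list for every gene, by choice. Mean percentiles over the 4 lists ran from 97.4 ± 4.18 (SD, n = 4) for CAMTA1 through 96.3 for ZNRF2, 95.7 for OSBP, 94.6 for PHTF2 and TMEM60, 94.4 for ZC3H6, 94.2 for COQ6, 93.9 for FBXO33 and 93.7 for TANC2 to 93.3 ± 6.32 for RFX1. Neighbours in this order lay within each other's SD. FAM161B, whose start lies 176 bp from that of COQ6 on the other strand, shared the COQ6 peak and its mean of 94.2. It was at place 8, above FBXO33, TANC2 and RFX1, but is not a member. Next below RFX1 were METAP1D at 93.0, BIRC2 at 92.3, DTNBP1 and ADPGK at 91.4 and SAMD4B at 91.0.

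The ranking depended on which lists and which genes entered it. Both CUT&Tag lists were made with the Novus antibody too, and they stayed in when the Novus ChIP list was left out. CAMTA1 was then at place 48 and RFX1 at place 404 of 6253 genes, not 1580, and 0 of the 10 were among the 11 highest. Among the same 1580 genes 1 was (CAMTA1, at place 7), and RFX1 was at place 87. Without the CST list 2 were (CAMTA1 and ZNRF2), and among the same 1580 genes 3 (FBXO33 too). Ranking by the peak's −log10 p in place of its fold left RFX1 first and CAMTA1 second, the only members among the 11 highest. The strongest HDAC6 peak anywhere over the gene with 5 kb at each end put CAMTA1 at place 8 of 6305 genes and the other 9 between places 26 and 109.

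OSBP and RFX1 stood apart from the other 8 in the Novus ChIP Ctrl list. OSBP encodes a sterol and phosphoinositide transfer protein of endoplasmic reticulum and Golgi contact sites, and RFX1 a winged-helix transcription factor. The OSBP peak (chr11:59615526-59616361) had a fold of 6.79 and a −log10 q of 20.3, rank 4 of 63833 peaks by fold. The RFX1 peak (chr19:14005924-14007093) had a fold of 5.39 and a −log10 q of 13.6, rank 7. The other 8 had folds of 2.79 to 3.99 and −log10 q of 1.08 to 2.61 in that list, so they ranked high among weak peaks. In the CST list the 10 folds were much closer, from 3.51 for FBXO33 to 4.03 for ZC3H6.

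CUT&Tag gave firmer peaks. Folds ran from 4.15 (PHTF2 and TMEM60) to 5.78 (CAMTA1) in list 1 and from 4.51 (ZC3H6) to 7.19 (ZNRF2) in list 2. Peak names of list 2, which also entered the ranking, carry prefixes of hairpin samples, so its group rests on the labels. The −log10 q was 5.31 to 13.3 in list 1 for every gene but TANC2, at 4.24, and 5.75 to 17.6 in list 2. For CAMTA1, which encodes a calmodulin-binding transcription activator, both CUT&Tag peaks ended just before the start, at −18 and −11 bp, as the drawing of peak extents shows. The TANC2 CUT&Tag peaks likewise lay wholly upstream, between −789 and −41 bp.

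**Figure D1:**
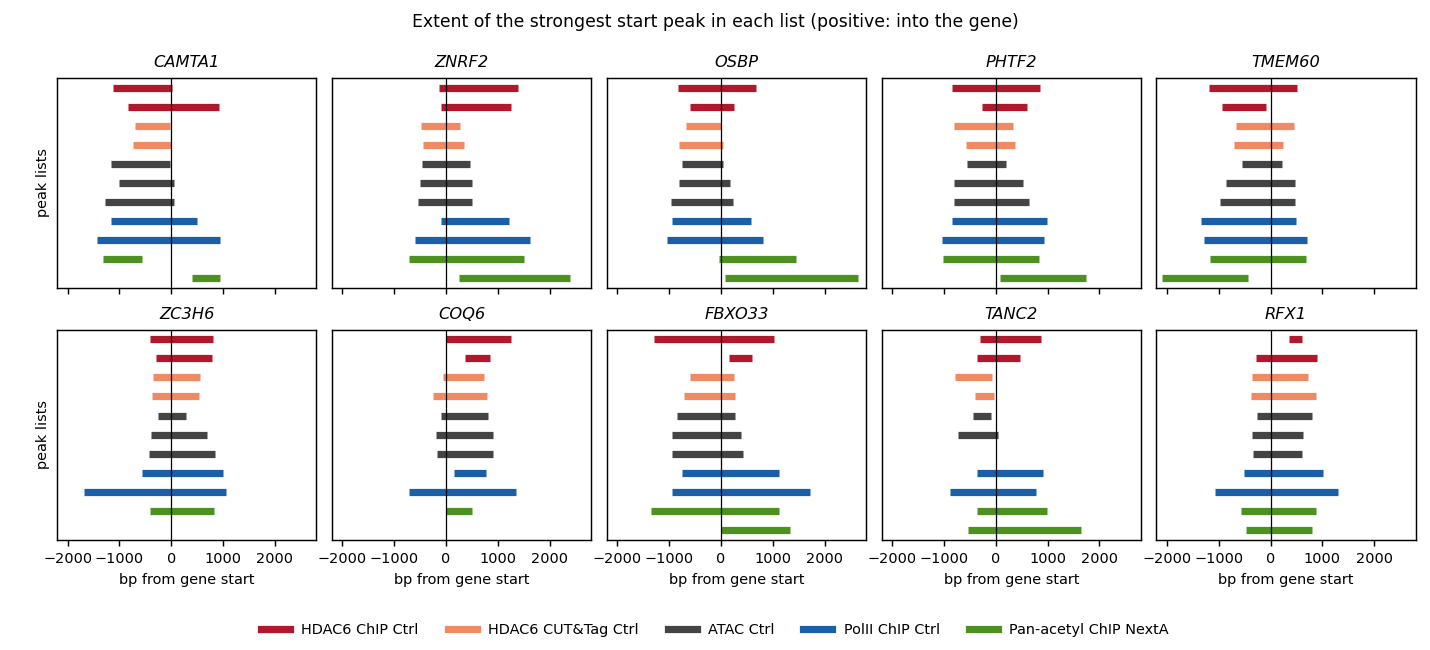
Extent of the strongest start peak in bp from the gene start (horizontal axis, positive into the gene), 1 bar per list and 1 panel per gene. From top to bottom each panel has 2 HDAC6 ChIP Ctrl, 2 HDAC6 CUT&Tag Ctrl, 3 ATAC Ctrl, 2 PolII Ctrl and 2 pan-acetyl NextA lists, with a gap where a list had no peak. In CAMTA1 the ATAC and CUT&Tag bars end near the start while PolII bars reach up to 938 bp into the gene. Its 2 pan-acetyl bars lie on opposite sides of the start, but each of these lists held 2 start peaks there and only the stronger is drawn.

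After the inhibitor most of these genes had no HDAC6 start peak, and after knockdown the lists differed. In NextA cells 0 of 10 had one in the CST list, where 4.10% of all genes did. In the Novus list 2 of 10 did, OSBP (fold 3.04) and RFX1 (fold 3.91), against 0.185% of all genes. Peak names of that Novus list carry prefixes of hairpin samples, so its group rests on the labels. In shHDAC6 list 1, 0 of 10 had one (2.54% of all genes). In list 2 there were 5 of 10 (1.77% of all genes): OSBP with a fold of 4.17, CAMTA1 with 3.65, RFX1 with 3.37, and PHTF2 and TMEM60 with 2.29, at percentile 0.247. The RFX1 peak reached a −log10 q of 4.71 and the OSBP peak 4.37 there, against 0.982 for CAMTA1 and 0.00837 for PHTF2 and TMEM60. Lost peaks, present in every Ctrl list and in no other list of the comparison, were counted in 8 of 10 genes with NextA (91.4% of the 2950 genes that could lose one) and in 5 of 10 with shHDAC6 against the Novus Ctrl list (93.9% of 4330). No member could gain one (0% of genes with NextA, 0.032% with shHDAC6). The genes were chosen on the same Ctrl lists, so nothing is read from these counts. The count for shHDAC6 was 10 without shHDAC6 list 2 (4208 of all genes, against 4068 with it), and OSBP and RFX1 were the 2 lost at a −log10 q of at least 5 (14 of all genes). The NextA count was 0 under that floor and 0 when each list was cut to its 235 strongest peaks. Under both settings 0 of all genes were lost, against 2696 in the full lists. The share of peak numbers kept in the deposited lists was 23.2% for the Novus Ctrl list and 0.103% for the Novus NextA list. Its part in these counts was not tested.

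**Figure D2:**
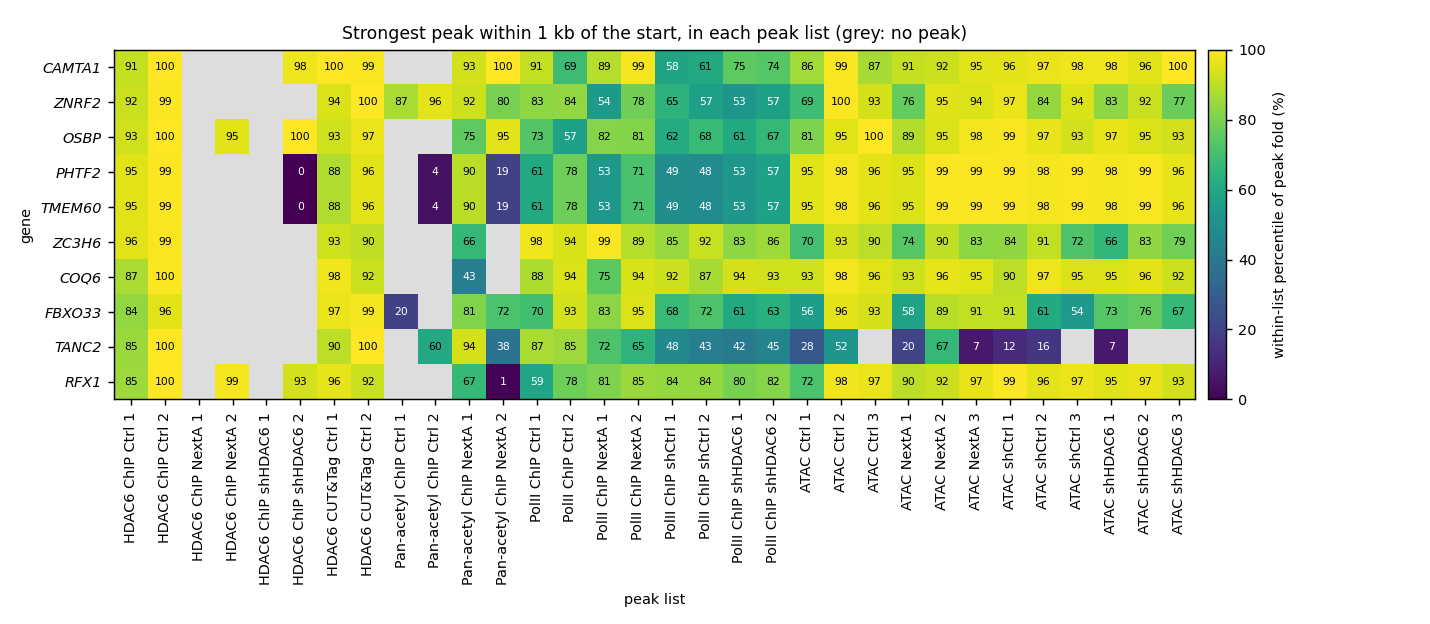
Within-list percentile of fold (0 to 100%, colour and printed value) of the strongest peak within 1 kb of the start, for the 10 genes (rows) in the 32 lists (columns), with grey where there was no peak. HDAC6 Ctrl and ATAC columns are mostly at or above 80 except TANC2 in ATAC, PolII columns lie between 41.6 and 99.2, and grey fills most HDAC6 NextA, HDAC6 shHDAC6 and pan-acetyl Ctrl columns.

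ATAC was not used to choose the genes. An ATAC start peak was present in all 12 lists for 9 of 10 genes, against 86.1% of the other 1570 HDAC6-marked genes and 40.8% of all other genes. The median over genes of the mean ATAC percentile was 93.9, against 74.7 for the other HDAC6-marked genes and 59.8 for all other genes with a peak. It rose with the HDAC6 rank among the other marked genes too. From the lowest to the highest quintile of mean HDAC6 percentile, median ATAC percentiles were 53.6, 67.6, 76.5, 82.2 and 84.6. In the highest quintile 17.9% of 313 genes were at or above the members' median. Each of these genes had HDAC6 and ATAC peaks ranked in lists from the same cells, and the quintiles carry no test.

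The divergent pair had the highest and steadiest accessibility. PHTF2, named for a putative homeodomain, encodes a membrane protein, and TMEM60 a small transmembrane protein. Their shared ATAC peak stood at percentile 94.6 at the lowest, 98.3 at the median and 99.5 at the highest of 12 lists. COQ6, a monooxygenase of coenzyme Q synthesis in mitochondria, was at 89.98, 94.9 and 98.2, and CAMTA1 at 86.1, 95.7 and 99.7. OSBP ranged from 80.7 to 99.7 with a median of 95.1 and RFX1 from 71.6 to 99.2 with a median of 96.3. ATAC Ctrl list 1 gave the lowest value of the 12 for CAMTA1, ZNRF2, OSBP and RFX1. That list and NextA list 1 kept 99.7% of their peak numbers, against 3.90% to 21.3% in the other 10 lists.

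Less accessible, and more variable, were 3 genes. ZNRF2 and FBXO33 both encode parts of ubiquitin ligases, a RING-finger ligase and an F-box protein, and ZC3H6 encodes a CCCH zinc finger protein. ZNRF2 ranged from 69.1 to 99.5 with a median of 92.8, ZC3H6 from 66.3 to 93.3 with a median of 83.3, and FBXO33 from 54.2 to 95.7 with a median of 74.7.

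TANC2, a scaffold protein of synapses, was the exception in ATAC. It had no ATAC start peak in Ctrl list 3, shCtrl list 3 and shHDAC6 lists 2 and 3. In Ctrl its percentiles were 27.7 and 52.5, and in NextA 20.5, 66.7 and 6.86. They were 12.5 and 15.9 in shCtrl and 6.95 in shHDAC6. The strongest ATAC peak over the gene with 5 kb at each end was never the start peak in 12 lists. It lay 309 to 467 kb downstream of the start, where percentiles reached 88.7 in Ctrl. The gene is 461 kb long, so the farthest of these peaks lay past its end. At the start the gene nevertheless had a PolII peak in all 8 lists, described below.

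**Figure D3:**
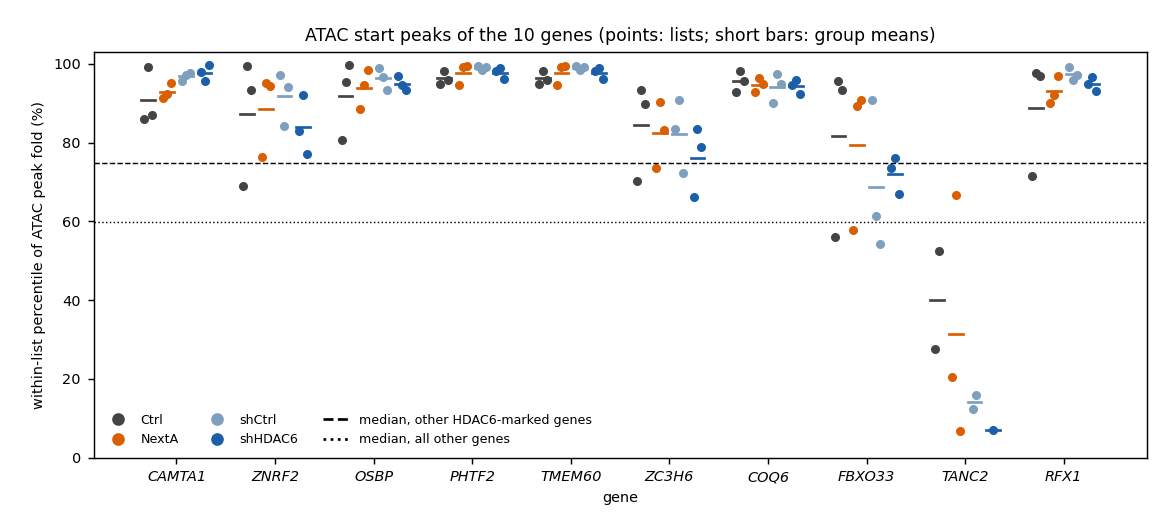
Within-list percentile of the ATAC start peak (vertical axis, %) for each gene in Ctrl, NextA, shCtrl and shHDAC6 cells, with a point per list and a bar at the group mean. The dashed line at 74.7 is the median of the other HDAC6-marked genes and the dotted line at 59.8 that of all other genes. TANC2 lies below the dashed line in all 8 lists where it had a peak.

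No member passed a test of change in ATAC with the inhibitor or the hairpin. With NextA 0 of 9 genes lost their start peak (0.0901% of genes that could) and 0 could gain one (0.167%), and with shHDAC6 0 of 9 lost it (0.41%) and 0 could gain one (0.487%). Standing was then compared, that is, a gene's percentile among the genes with a start peak in every list compared. By limma with Benjamini-Hochberg adjustment 0 of 9346 genes were called with NextA (0%; 221 at an unadjusted p under 0.05) and 0 of 9054 with shHDAC6 (0%; 650 at an unadjusted p under 0.05). Members' differences ran from −12.4 points (FBXO33, SE 16.9) to 4.07 points (PHTF2 and TMEM60, SE 4.57) with NextA. With shHDAC6 they ran from −16.6 points (ZNRF2, SE 11.4) to 3.39 points (CAMTA1, SE 4.00). TANC2 was not in these tests, since it lacked a peak in some lists. No member's groups were apart in either comparison, where groups apart means that all lists of 1 group lay above all lists of the other (3.3% of genes were higher and 3.76% lower with NextA, 6.37% and 6.17% with shHDAC6). Same-numbered Ctrl and NextA lists were taken as pairs. Lists 2 and 3 correlated as highly across numbers (0.213 and 0.233) as within them (0.208 each), so their match is by number only. FBXO33, ZC3H6 and COQ6 were lower with NextA in all 3 pairs, as were 13.8% of all genes. The pair differences were −2.69, −23.8 and −10.7 points for FBXO33, −0.498, −14.7 and −18.0 for ZC3H6, and −2.99, −9.89 and −4.97 for COQ6. With the pairs as a block 0 genes were called (520 at an unadjusted p under 0.05, limma). With 3 lists a group the SEs reached 16.9 points among members.

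PolII lay at every one of these starts. All 10 genes had a PolII start peak in all 8 lists, against 94.6% of the other HDAC6-marked genes and 51.5% of all other genes. Their median mean percentile, 72.2, lay between the 75.0 of the other marked genes and the 68.1 of all other genes with a peak. Over the quintiles of HDAC6 rank among the other marked genes, from the lowest to the highest, the medians were 68.2, 72.6, 76.6, 78.6 and 79.7. The order of the members was not that of ATAC. By the mean over 8 lists ZC3H6 was highest at 90.6, with a percentile of 82.9 at the lowest, 90.3 at the median and 99.2 at the highest of 8 lists. COQ6 followed with a mean of 89.6 (74.7, 92.6 and 94.4), and was above ZC3H6 in shCtrl (89.7 against 88.1) and shHDAC6 (93.2 against 84.4). RFX1 was at 59.2, 81.2 and 84.8. The most accessible pair, PHTF2 and TMEM60, was lowest by the mean over 8 lists, at 58.8, with values of 48.3 to 77.8. TANC2, with the weakest ATAC peaks, was next at 60.8, from 41.6 to 87.4. The order differed between groups: in Ctrl TANC2 was at 86.4, the 3rd highest of the 10, and OSBP was lowest at 65.4.

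CAMTA1 was the one member called in PolII after knockdown. Its PolII start peak had folds of 4.18 and 4.57 in shCtrl and 6.46 and 6.61 in shHDAC6. Its standing among the 11993 genes with a peak in all 4 lists was 34.6 and 37.2 in shCtrl and 61.3 and 59.0 in shHDAC6. Both shHDAC6 lists were above both shCtrl lists. The rise, from 35.9 ± 1.80 to 60.1 ± 1.64 (SD, n = 2 each), was 24.2 points (SE 3.75, adjusted p = 0.00722, limma). In the same test 26.3% of all genes were called higher and 25.6% lower, so a call was common. Of the 10 members 1 was called higher and 0 lower. The call ended when standing was taken from −log10 p in place of fold, with a difference of 2.86 points (adjusted p = 0.601). It also ended when all 8 PolII lists shared 1 estimate of spread (25.5 points, adjusted p = 0.661, limma), where 0 genes were called. In that fit standing was taken among the 10284 genes with a peak in all 8 lists. The shCtrl lists kept 50.5% and 56.6% of their peak numbers and the shHDAC6 lists 72.7% and 75.1%. The part of this difference in the result was not tested.

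Of the other 9 members 0 were called in that comparison, where 26.3% of all genes were called higher and 25.6% lower. PHTF2 and TMEM60 stood at 24.0 and 22.7 in shCtrl and at 30.04 and 35.2 in shHDAC6, 9.29 points higher (SE 3.002, adjusted p = 0.0542). With −log10 p in place of fold they were called (13.8 points, adjusted p = 0.0330, limma). They were also called among peaks with a −log10 q of at least 5 (9.42 points, adjusted p = 0.0377, limma). No share of all genes is set beside the calls under these 2 settings here, so neither is read as particular to the pair. COQ6 stood 7.07 points higher (SE 3.48, adjusted p = 0.150). FBXO33 differed by −8.14 points (SE 4.18, adjusted p = 0.163), RFX1 by −3.12, ZNRF2 by −5.18, ZC3H6 by −4.02, TANC2 by −0.871 and OSBP by 1.52. Groups were apart for 4 members higher, CAMTA1, PHTF2, TMEM60 and COQ6 (40% of all genes), and for 2 lower, FBXO33 and RFX1 (39.3%). No member lost its PolII start peak (0.958% of genes that could) and none could gain one (2.19%).

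With NextA the PolII lists of a group lay far apart for many members, though not for TANC2, and 0 of 10572 genes were called (0%; 79 at an unadjusted p under 0.05, limma). CAMTA1 folds were 6.64 and 8.29 in Ctrl and 5.58 and 17.7 in NextA, and its standing was 27.1 points higher (SE 22.6, adjusted p = 0.9998). TANC2 had folds of 6.23 and 11.3 in Ctrl and 4.35 and 7.54 in NextA, with a standing of 74.8 and 65.6 in Ctrl and 32.5 and 29.7 in NextA. The difference was −39.2 points (SE 31.8, adjusted p = 0.9998), with an SE that uses the spread shared across genes. TANC2 and ZNRF2 had groups apart and lower (11.9% of genes) and OSBP and RFX1 apart and higher (12.5%). With 2 lists a group, SEs among members were 10.9 to 31.8 points, so that large differences could not be told from the spread. No member lost its start peak (0.0834% of genes that could) and none could gain one (0.862%).

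**Figure D4:**
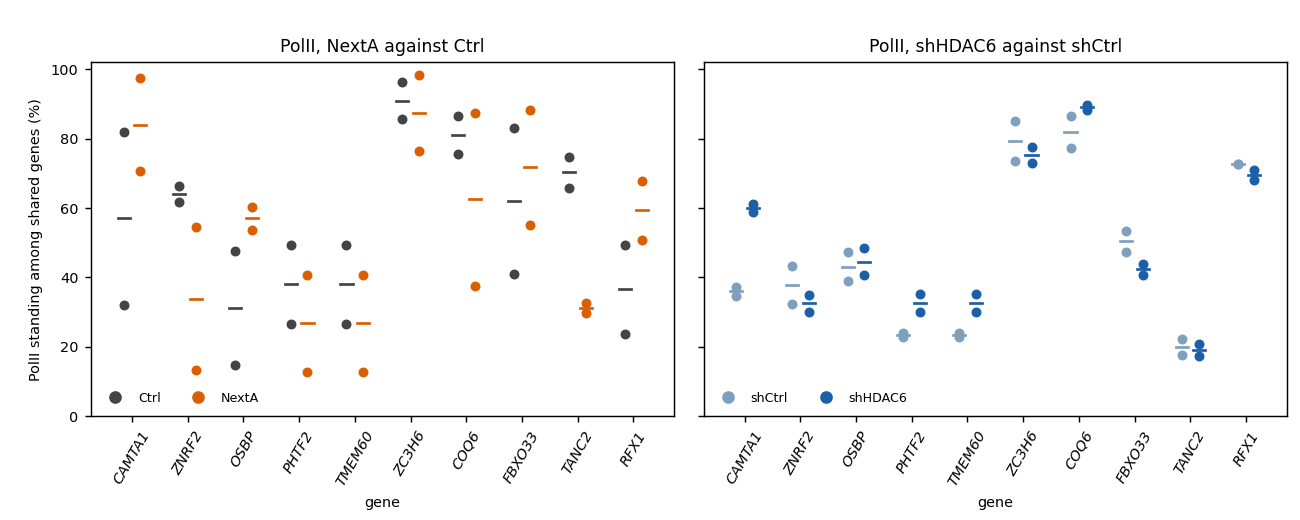
Standing of the PolII start peak (vertical axis, percentile among genes with a PolII start peak in all 4 lists of the comparison) for each gene, with a point per list and a bar at the mean. The left panel sets NextA against Ctrl, with lists of a group far apart for many genes but not for TANC2, and the right panel shHDAC6 against shCtrl, where CAMTA1 goes from 35.9 to 60.1.

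Whether inhibitor and knockdown acted differently on a gene was tested as an interaction. In ATAC 0 of 8146 genes were called in either direction (0%; 348 at an unadjusted p under 0.05, limma) and in PolII 0 of 10284 (0%; 1094 at an unadjusted p under 0.05). Among members the largest PolII difference was in TANC2, −38.7 points (SE 14.1, adjusted p = 0.410). For CAMTA1 it was 2.28 points (SE 26.2, adjusted p = 0.986), an SE too wide to tell a large difference from none.

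Acetylated histone H3 was seen at few of these starts in Ctrl and at most of them in NextA cells. In Ctrl list 1, ZNRF2 and FBXO33 had a start peak, 2 of 10 (6.18% of all genes). In Ctrl list 2, ZNRF2, PHTF2, TMEM60 and TANC2 did, 4 of 10 (18.3%). In NextA list 1 all 10 genes had one (58.7%) and in NextA list 2 there were 8 of 10, without ZC3H6 and COQ6 (38.0%). CAMTA1, OSBP and RFX1 had a peak in both NextA lists and no Ctrl list, 3 of the 5 members that could gain one. By the same count 25.1% of 15568 genes gained one, and 55.3% of the 758 other HDAC6-marked genes that could. ZNRF2, the only member that could lose its peak, kept it (0 of 484 genes lost it, 0%).

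The strength of these acetyl peaks was uneven. CAMTA1 had folds of 4.72 and 4.57 in NextA, at percentiles 93.3 and 99.9. The strongest peak lay from −1319 to −574 bp in list 1 and from 402 to 932 bp in list 2. Each of these lists held 2 start peaks for CAMTA1, so the places of the strongest do not show that the lists differed in position. OSBP had folds of 3.91 and 2.79, and both peaks lay over the gene body side of the start, reaching 1440 and 2653 bp into the gene. RFX1 had folds of 3.68 and 1.97, the latter at percentile 1.10 with a −log10 q of 0.109. The count of gained peaks was 0 with a −log10 q of at least 5, where 0 of all genes gained one, and 0 when each list was cut to its 1418 strongest peaks, where 39 did, against 3913 in the full lists. It was 6 without Ctrl list 2 and 5 without NextA list 2, where 5761 and 7878 of all genes gained one. Ctrl list 1 held 1418 peaks, against 28473 in NextA list 1, and the part of that difference in the count was not tested.

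Over the whole genes with 5 kb at each end, the start held the strongest peak in most lists. It did so in 28 of 32 lists for OSBP and RFX1, 27 for TMEM60 and FBXO33, 25 for ZNRF2, PHTF2 and COQ6 and 23 for ZC3H6. CAMTA1 and TANC2, the longest of the 10 at 984 and 461 kb, had it at the start in 19 and 13 lists. In CAMTA1, the strongest ATAC peak lay 617 kb into the gene in Ctrl list 1 and in all 3 NextA lists, and 332 kb into it in Ctrl list 3. In all 6 hairpin lists and Ctrl list 2 it was the start peak. ATAC peaks over CAMTA1 numbered 17 to 23 in Ctrl, 22 or 23 in NextA, 15 to 17 in shCtrl and 10 to 14 in shHDAC6. Whole lists held 42113 to 74018 peaks in Ctrl, 59710 to 79666 in NextA, 28883 to 32998 in shCtrl and 25878 to 32111 in shHDAC6. The part of list length in the CAMTA1 counts was not tested.

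HDAC6 peaks at these starts lay largely within PolII peaks of Ctrl cells, and less fully within ATAC peaks. Cover was measured for the members only, so no share over other genes stands beside it. Over all pairs of an HDAC6 and a PolII Ctrl list, the median share of the HDAC6 peak covered was 100% for CAMTA1, OSBP, PHTF2, TMEM60, ZC3H6, FBXO33 and RFX1, 99.3% for TANC2, 98.1% for ZNRF2 and 91.9% for COQ6. For ATAC it was 71.3% to 97.7% in 9 genes and 31.3% in TANC2. These medians pool ChIP and CUT&Tag peaks. The lowest ATAC cover in any pair ran from 26.3% (FBXO33) to 76.2% (RFX1) in those 9 genes and was 0% in TANC2. PolII start peaks were 616 to 2733 bp wide in Ctrl, against 342 to 1447 bp for ATAC and 350 to 1243 bp for CUT&Tag.

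Among non-members, the genes whose pattern over the 28 lists outside the rule was most like that of CAMTA1 were PARP6, G3BP1 and BICD2. Their start percentiles, set to 0 where there was no peak, differed from those of CAMTA1 by 7.34, 7.71 and 8.06 points in the mean absolute difference, against a median of 46.2 over genes. G3BP1 was itself HDAC6-marked, at place 24 of the HDAC6 ranking with a mean percentile of 90.6.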

How the data were processed

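Peaks were called per sample by the authors, and the lists were deposited without a header (10 columns in ATAC lists, 9 in the rest). Per the submitters' processing notes, the build was hg38 and the tools named were MACS2 2.2.7.1, ChIPseeker 1.28.2, Bowtie2 2.4.4, Trim Galore 0.6.7, deepTools 3.5.1 and SAMtools 1.13. Fold over background is a linear ratio that the authors deposited. The −log10 of p and of q were deposited beside it, and ATAC lists add a deposited summit offset. Read depth is not recoverable from peak lists, so no interval or floor is given, and the absence of a peak is absence from a list. Gaps in the numbering of peak names show that peaks were removed after calling, to different degrees. Peak names of the Novus NextA list and of CUT&Tag list 2 carry prefixes that belong to hairpin samples elsewhere, but the labels decided their group.

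Repeated intervals were merged. Gene positions came from a RefSeq table of the same assembly. The start of 15812 genes was taken from the strand of their RefSeq promoter entry, and of 3296 others (FBXO33 among them) it was the gene end with peaks in more lists. Another 866 were tied. A start peak was the strongest by fold within 1 kb, with an overlap of at least 1 bp.

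The members and lists were chosen with earlier results of these data known. Named were the 10 members, genes starting within 1 kb of them, the 5 next in HDAC6 rank, and the 3 non-members most like CAMTA1. Standing was tested with limma 3.58.1 in R 4.3.3 (empirical Bayes with a trend, Benjamini-Hochberg over all genes, threshold 0.05) among genes with a start peak in every list compared, and the same code was tested on simulated data. Tables and plots used Python 3.11.15, numpy 2.4.6, pandas 2.3.3 and matplotlib 3.10.9. In ATAC, deviations of same-numbered Ctrl and NextA lists correlated by 0.525, 0.208 and 0.208, so the numbers were taken to pair them. The correlation between lists 2 and 3 was as high, at 0.213 and 0.233. Motifs were counted on both strands, and matches of different motifs were allowed to overlap. The sets set beside the CCAAT counts were added after the members' counts were seen.

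The alternatives tried were a floor of 5 on −log10 q, lists cut to equal length, a 500 bp or 5 kb window, a 200 bp overlap, −log10 p or log2 fold in place of the percentile of fold, a replicate block, all groups in 1 fit, and leaving out each list.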

Additional observations from a re-analysis of the deposited data

How the results depend on the processing

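The place of these genes in the HDAC6 ranking was the least stable result. Of the 10, 2 were among the 11 highest by −log10 p and 1 with the gene and 5 kb as the window, and 0 to 8 when 1 of the 4 Ctrl lists was left out, the lowest without HDAC6 ChIP Ctrl replicate 2 (1 to 8 when the same 1580 genes were ranked, an alternative chosen after seeing the data). Members gaining a pan-acetyl peak with NextA were 3 (3913 of all genes), 0 with a −log10 q of at least 5 (0), 0 at equal list length (39), and 3 to 6 with a list left out (4486 to 7878). Members losing the HDAC6 peak were 8 with NextA (2696 of all genes), 0 with a −log10 q of at least 5 (0) and 0 at equal list length (0). With shHDAC6 they were 5 (4068), 2 with a −log10 q of at least 5 (14), and 5 to 10 with a list left out (4188 and 4208). Members called in PolII standing with shHDAC6 were 1, 2 by −log10 p, 3 with a −log10 q of at least 5 and 0 with all groups in 1 fit. The share of all genes called is not given under the −log10 q floor, so the 3 have no background beside them. CAMTA1 kept its call with each list left out (22.9 to 25.4 points, adjusted p 0.0335 to 0.0458, limma, where a lone list is assumed to vary like the others). Genes called in that comparison were 6219, 3623 by −log10 p, 0 with all groups in 1 fit, and 3895 and 4039 without shHDAC6 list 1 or list 2. Genes called for the PolII interaction were 0, but 88 without Ctrl list 2, none of them a member. With all groups in 1 fit 2 genes were called in ATAC with NextA, neither a member.

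No member was gained or lost in ATAC or PolII under any alternative run. With the replicate block as a term the CAMTA1 adjusted p was 0.0112 (limma) and the other members' calls did not change. Same-numbered PolII lists correlated by 0.416 (NextA) and 0.124 (shHDAC6), in 2 pairs each, too few to decide whether the numbers pair them. Same-numbered hairpin ATAC lists correlated by −0.003 to 0.0135, so these share only a number. No read counts were used here, so differences in depth between lists could not be measured.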
